A study of Mus musculus with 8 samples.

Results

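The transcripts described here are 10 genes used as markers of subplate neurons in the mouse cortex: Nr4a2, Ccn2, Nxph4, Cplx3, Kcnab1, Tmem163, Lpar1, Inpp4b, Moxd1 and Svil. They were found by exact gene symbol among the 55202 genes of the joined count tables, and all 10 passed the filter on low counts. The rule names them by symbol and uses no measured value. Expression was measured by RNA sequencing of the lowest part of the cortical plate, the presumptive subplate, cut by hand from somatosensory cortex at postnatal day 0. Mutants of the first line carried Emx1Cre11.5;Lhx2lox/lox and mutants of the second carried NexCre;Lhx2lox/lox. The controls of each line are labelled WT, and all animals were of mixed strain. Each of the 4 groups had 2 libraries, and each library pooled tissue of 2 brains, which makes n = 2 pools a group. The design text counts only 2 control samples in all, whereas 4 control libraries are labelled, and these were assigned to the 2 lines by their titles. Emx1Cre acts in the dividing progenitors of the cortex, from which neurons and glia descend, and NexCre acts from the Neurod6 locus in excitatory neurons after their last division. The lines thus allow Lhx2, a LIM-homeodomain transcription factor, to be removed early or late. The question for the subplate markers is whether their RNA differed between mutants and controls in either line. The labels give no Cre allele for the controls, so the driver allele and the loss of Lhx2 cannot be told apart.

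Subplate neurons are among the earliest neurons of the cortex. They lie below the cortical plate, where ingrowing thalamic axons wait and form transient contacts before they enter the plate. After birth many of them are lost, and the survivors form layer 6b. No single gene marks all of them, and the markers differ in their other sites of expression: Nr4a2 is also known from the claustrum and from midbrain dopamine neurons, and Lpar1 from the oligodendrocyte lineage. In bulk tissue, fewer cells of a type and less RNA per cell cannot be told apart.

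The promoters of 3 members are shown: Cplx3 was the member with the lowest p in the Emx1Cre line, Nr4a2 had a value of opposite sign there, and Tmem163 is one of 2 members with a homeodomain motif in a window. Each line gives the 250 bases before the transcription start, read 5′ to 3′ along the gene, from RefSeq on GRCm38.p6, and capitals mark the motif TAATTA.
Cplx3, chr9:57606282-57606531, minus strand: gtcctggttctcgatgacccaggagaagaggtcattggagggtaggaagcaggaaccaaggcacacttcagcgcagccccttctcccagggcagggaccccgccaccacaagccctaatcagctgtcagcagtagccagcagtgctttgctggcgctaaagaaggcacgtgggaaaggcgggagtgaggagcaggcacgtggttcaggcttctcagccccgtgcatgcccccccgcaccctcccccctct
Nr4a2, chr2:57124004-57124253, minus strand: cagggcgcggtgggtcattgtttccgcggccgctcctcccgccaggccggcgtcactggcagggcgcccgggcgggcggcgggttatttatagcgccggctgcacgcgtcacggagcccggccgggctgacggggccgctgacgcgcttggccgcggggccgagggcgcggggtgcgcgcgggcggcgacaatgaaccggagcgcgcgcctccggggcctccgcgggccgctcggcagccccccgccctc
Tmem163, chr1:127678022-127678271, minus strand: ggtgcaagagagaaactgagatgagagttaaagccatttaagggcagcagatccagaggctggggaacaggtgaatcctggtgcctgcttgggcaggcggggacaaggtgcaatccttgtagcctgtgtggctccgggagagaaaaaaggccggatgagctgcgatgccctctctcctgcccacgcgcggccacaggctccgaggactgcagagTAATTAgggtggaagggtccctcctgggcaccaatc
RefSeq windows, which also take in 50 bases after the start, were found for 7 of the 10 members. TAATTA, the core that many homeodomain proteins including LHX2 can bind, was searched for; it reads the same on both strands. It stood in 2 of the 11 windows of these 7 genes, once in Tmem163, starting 36 bases before the transcription start, and once in an internal Lpar1 window, starting 107 bases before it. Of all 32851 promoter windows 5.29% hold it. Windows of 1 gene can overlap, and the Tmem163 window lies inside the annotated gene, whose end in GENCODE is farther upstream. A match of letters is not a binding site.

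Depth ran from 31.2 to 64.4 M reads per library. Levels are given as CPM, reads per M scaled by the trimmed mean of M-values (TMM), and each fold change is the mutant over its control on the log2 scale, with its standard error (SE) from edgeR's quasi-likelihood fit over all 8 libraries. A gene was called at an adjusted p under 0.05 over the 22820 tested genes. Nothing in the labels says whether pools share litters, so the p-values measure the spread between these pools. With 2 pools against 2, an exact permutation test cannot go below p = 0.333, and every p below borrows its spread from all genes. Lhx2 itself stood at 64.0 and 42.7 CPM in Emx1Cre mutants, against 90.4 and 91.5 CPM in their controls (-0.77 ± 0.20, edgeR adjusted p = 0.273), and DESeq2 called it lower there (adjusted p = 0.0324). In the libraries labelled NexCre mutant it stood at 227 and 245 CPM, against 182 and 236 CPM in their controls (0.18 ± 0.20). It was thus not lower in the NexCre mutants, and Lhx2 reads did not show that genotype, which is taken from the label. The labels do not say which exons the lox sites flank, so reads over the whole gene check these genotypes only in part. Emx1 was called lower in Emx1Cre mutants (-1.66 ± 0.22, edgeR adjusted p = 0.0334), and Neurod6 gave -0.75 ± 0.23 in NexCre mutants (edgeR adjusted p = 0.950). The fall of Emx1 was not confined to the Emx1Cre line. NexCre mutants had 27.8 and 26.3 CPM of Emx1, against 32.1 and 50.3 CPM in their controls (-0.61 ± 0.22, not called by edgeR). Neurod6 gave -0.28 ± 0.23 in Emx1Cre mutants, and its groups overlapped there.

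In the Emx1Cre line the subplate markers did not share one direction. Cplx3, Kcnab1 and Nxph4 had between 0.286 and 0.472 times their control level in the mutants, and Ccn2 and Tmem163 had 0.686 and 0.617 times that level. Nr4a2 was higher in both mutants than in both controls, at 1.48 times the control level. The remaining 4 had fold changes of at most 0.37 on the log2 scale. By edgeR 0 of the 10 members were called, against 0.0789% of all tested genes. At an unadjusted p under 0.05, 4 were lower and 0 higher, where 3.07% of all genes were lower and 4.52% higher. DESeq2 called 3 members lower, Cplx3, Nxph4 and Kcnab1, against 0.6% of genes called lower by it. The median log2 fold change was -0.23 over the members and 0.0 over all tested genes. Without Emx1Cre control 1 the members' median was -0.0015, and without Emx1Cre mutant 1 it was -0.35.

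**Figure D1:**
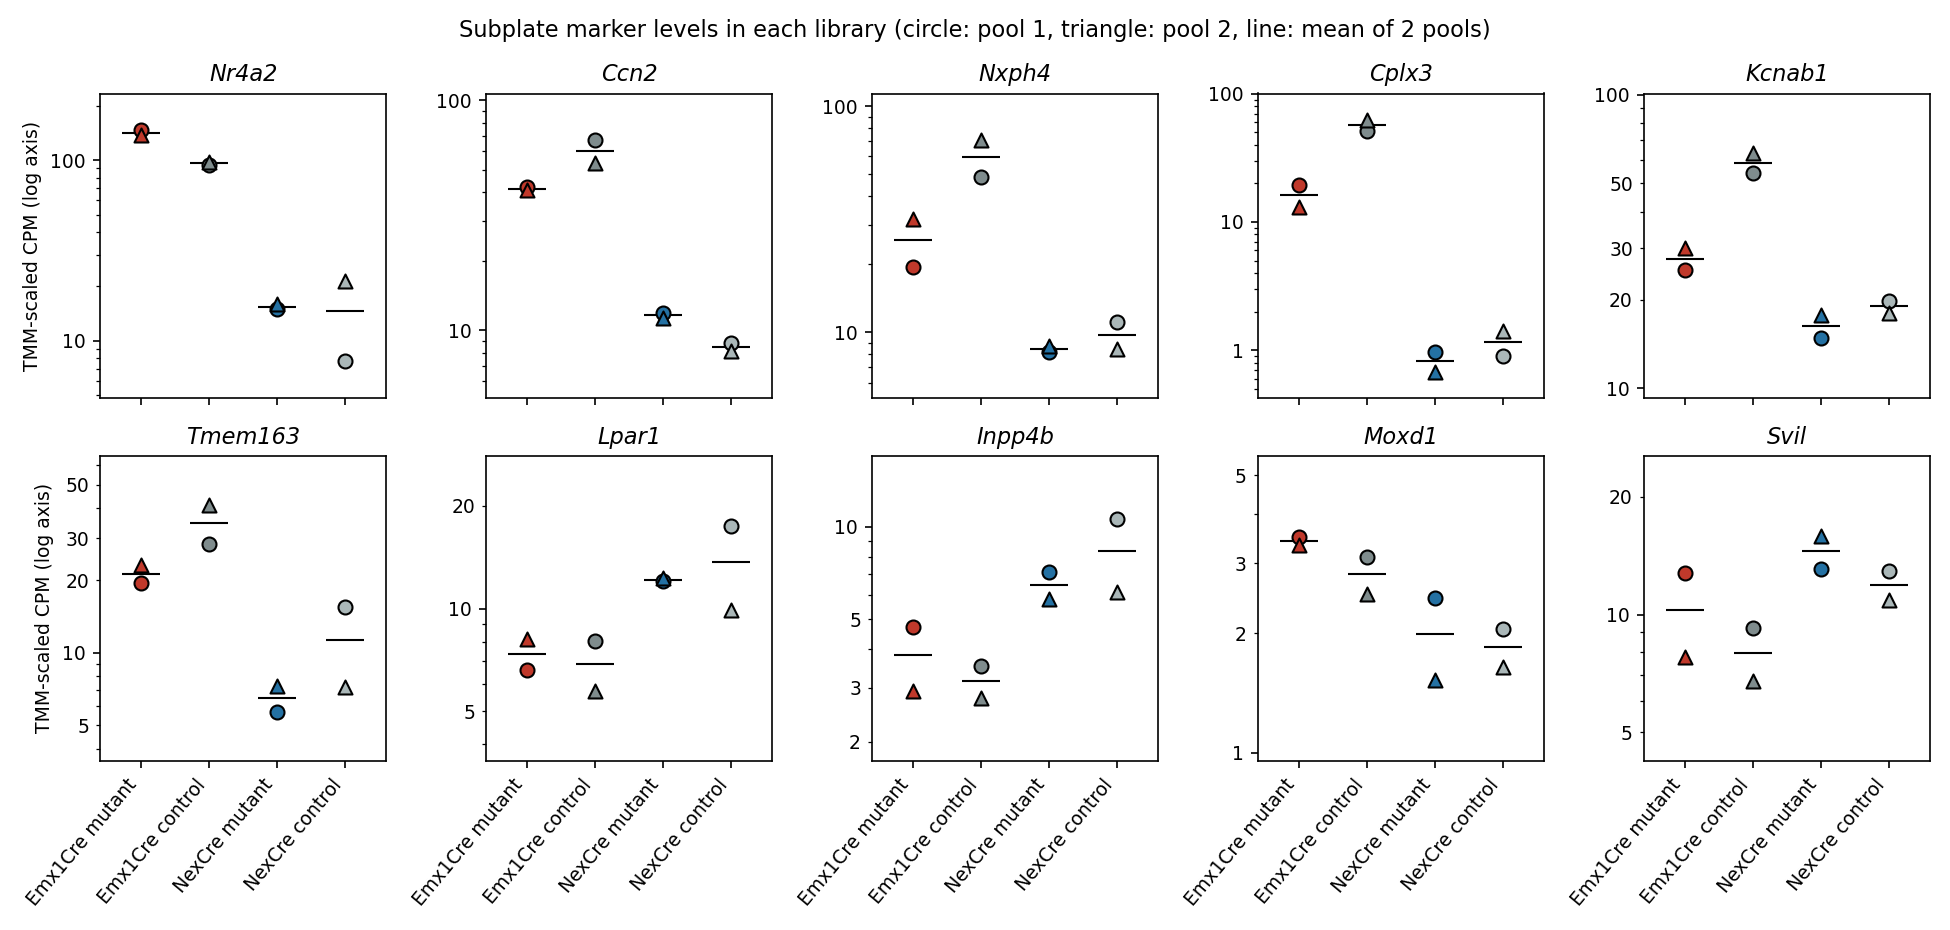
Level of each of the 10 subplate markers in every library (CPM, log axis), with mutants to the left of controls within the Emx1Cre and the NexCre line. Circles and triangles are the 2 pools of a group and lines their mean. Cplx3 lies between 13.1 and 62.7 CPM in the Emx1Cre libraries and between 0.679 and 1.42 CPM in the NexCre libraries.

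Nr4a2, also called Nurr1, lies at chr2:57106830-57124003 (GRCm38, as are all positions here). It encodes an orphan nuclear receptor that acts as a transcription factor and is among the earliest markers of subplate neurons. It is the only transcription factor of the set. Nr4a2 had 146 and 137 CPM in Emx1Cre mutants, against 93.8 and 98.0 CPM in Emx1Cre controls. Both mutants stood above both controls, yet the log2 fold change of 0.56 ± 0.34 did not pass the test (edgeR adjusted p = 0.778). Its 95% interval ran from -0.19 to 1.31. NexCre mutants had 14.99 and 15.98 CPM, against 7.72 and 21.5 CPM in NexCre controls. There the mutants lay between the 2 controls, which differed from each other more than the groups did (0.08 ± 0.35, edgeR adjusted p = 1.0). Without NexCre control 1 that difference was -0.47, and without NexCre control 2 it was 1.00.

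Ccn2, also called Ctgf, at chr10:24595442-24598683, encodes a secreted matricellular protein and is the most widely used marker of the mouse subplate and layer 6b. Its level was 41.9 and 40.7 CPM in Emx1Cre mutants, against 66.9 and 53.5 CPM in Emx1Cre controls. Both mutants were below both controls, by 0.54 on the log2 scale (-0.54 ± 0.17, edgeR adjusted p = 0.412). Ccn2 took the other direction in the NexCre line, with 11.9 and 11.3 CPM in mutants, against 8.84 and 8.11 CPM in controls. The groups again did not overlap (0.45 ± 0.17, edgeR adjusted p = 1.0). The 2 lines thus gave values of opposite sign for this gene.

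Nxph4, at chr10:127525473-127534559, encodes neurexophilin 4, of a family of secreted glycoproteins of which some bind alpha-neurexins at synapses. It had 19.4 and 31.8 CPM in Emx1Cre mutants, against 48.6 and 71.2 CPM in Emx1Cre controls. Its log2 fold change of -1.23 ± 0.27 was past the threshold by DESeq2 (adjusted p = 0.00392) and not by edgeR (adjusted p = 0.191). The 2 pools of each Emx1Cre group lay well apart from each other, and the groups still did not overlap. Its levels in the NexCre line were 8.20 and 8.71 CPM in mutants, against 11.1 and 8.44 CPM in controls, and the groups overlapped (-0.21 ± 0.28).

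Cplx3, at chr9:57599992-57606281, encodes complexin 3, which binds the SNARE complex and tunes vesicle release, and which in the cortex is close to restricted to subplate and layer 6b. Cplx3 had 19.4 and 13.1 CPM in Emx1Cre mutants, against 51.2 and 62.7 CPM in Emx1Cre controls, from 530 to 3303 reads a library. Its mutant level was 0.286 times that of the controls (95% interval 0.188 to 0.434), a log2 fold change of -1.81 ± 0.27. It had the lowest p of the members, and its edgeR adjusted p of 0.064 stayed above the threshold, whereas DESeq2 gave an adjusted p of 5.53e-08. Leaving out Emx1Cre mutant 1, NexCre control 1 or NexCre control 2 brought it past the edgeR threshold, and over all 16 alternatives its adjusted p ran from 1.08e-09 to 0.207. Cplx3 rested on few reads in the NexCre line, 37 and 28 reads in mutants, against 29 and 57 reads in controls. These are 0.973 and 0.679 CPM in mutants, against 0.903 and 1.42 CPM in controls (-0.51 ± 0.34, 95% interval -1.26 to 0.24, edgeR adjusted p = 1.0).

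Kcnab1, at chr3:65109384-65378223, encodes a beta subunit of Kv1 voltage-gated potassium channels, which can speed their inactivation. It stood at 25.3 and 30.0 CPM in Emx1Cre mutants, against 54.1 and 63.2 CPM in Emx1Cre controls. The 2 groups were tight and well apart (-1.08 ± 0.18, edgeR adjusted p = 0.0965), and DESeq2 called the fall (adjusted p = 0.000126). NexCre mutants had 14.8 and 17.8 CPM, against 19.9 and 18.1 CPM in NexCre controls. There too both mutants were below both controls, by a small margin (-0.22 ± 0.18, edgeR adjusted p = 1.0).

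Tmem163, at chr1:127486546-127679548, encodes a zinc transporter of vesicle and plasma membranes. Its levels were 19.5 and 23.2 CPM in Emx1Cre mutants, against 28.3 and 41.0 CPM in Emx1Cre controls. The groups did not overlap, but the 2 controls were far apart (-0.70 ± 0.33, edgeR adjusted p = 0.683). NexCre mutants had 5.71 and 7.27 CPM, against 15.5 and 7.22 CPM in NexCre controls. The difference of -0.80 ± 0.34 (edgeR adjusted p = 1.0) rested on NexCre control 1: without it the log2 fold change was -0.16. In that library the 7 thalamic markers summed to 308 CPM, against 57.3 to 77.4 CPM in the other 3 NexCre libraries, and the part of thalamic tissue in the Tmem163 value was not tested.

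The signalling members, Lpar1 at chr4:58435255-58553898 and Inpp4b at chr8:81342556-82127914, gave overlapping groups in the Emx1Cre line. Lpar1, a G protein-coupled receptor for lysophosphatidic acid, had 6.6 and 8.12 CPM in Emx1Cre mutants, against 8.05 and 5.73 CPM in controls (0.09 ± 0.31). Inpp4b, a lipid phosphatase of the phosphoinositide pathway, had 4.72 and 2.92 CPM in Emx1Cre mutants, against 3.52 and 2.78 CPM in controls (0.28 ± 0.36). Both had higher values in the NexCre line, where their groups overlapped as well. Lpar1 had 12.04 and 12.3 CPM in NexCre mutants, against 17.5 and 9.89 CPM in controls (-0.17 ± 0.30). Inpp4b had 7.15 and 5.82 CPM in NexCre mutants, against 10.6 and 6.12 CPM in controls (-0.36 ± 0.36).

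Moxd1, at chr10:24223517-24302790, encodes a relative of dopamine beta-hydroxylase in the secretory pathway. It had 3.49 and 3.34 CPM in Emx1Cre mutants, against 3.12 and 2.51 CPM in controls (0.28 ± 0.37). NexCre mutants had 2.45 and 1.53 CPM, against 2.05 and 1.65 CPM in NexCre controls (0.10 ± 0.38). Svil, at chr18:4920540-5119299, encodes supervillin, which links actin and myosin to membranes. It had 12.8 and 7.77 CPM in Emx1Cre mutants, against 9.21 and 6.76 CPM in controls (0.37 ± 0.29), and 13.1 and 15.9 CPM in NexCre mutants, against 12.9 and 10.9 CPM in controls (0.28 ± 0.29). For Lpar1, Inpp4b, Moxd1 and Svil the 95% intervals held 0 in both lines. In the Emx1Cre line they ran from -0.59 to 0.77 for Lpar1, from -0.53 to 1.09 for Inpp4b, from -0.55 to 1.11 for Moxd1 and from -0.28 to 1.01 for Svil.

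In the NexCre line 0 of the 10 members were called by edgeR, against 0.0307% of all tested genes, and DESeq2 called 0, against 0.367% of genes. Before adjustment, at p under 0.05, Ccn2 was higher and Tmem163 lower there, against 1.69% of all genes higher and 2.27% lower. The members' median log2 fold change was -0.19, beside 0.0038 over all genes, and 0.041 without NexCre control 1. Both mutant libraries stood on one side of both controls for 7 members in the Emx1Cre line, against 30.2% of all genes, and for 3 in the NexCre line, against 35.8% of all genes.

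**Figure D2:**
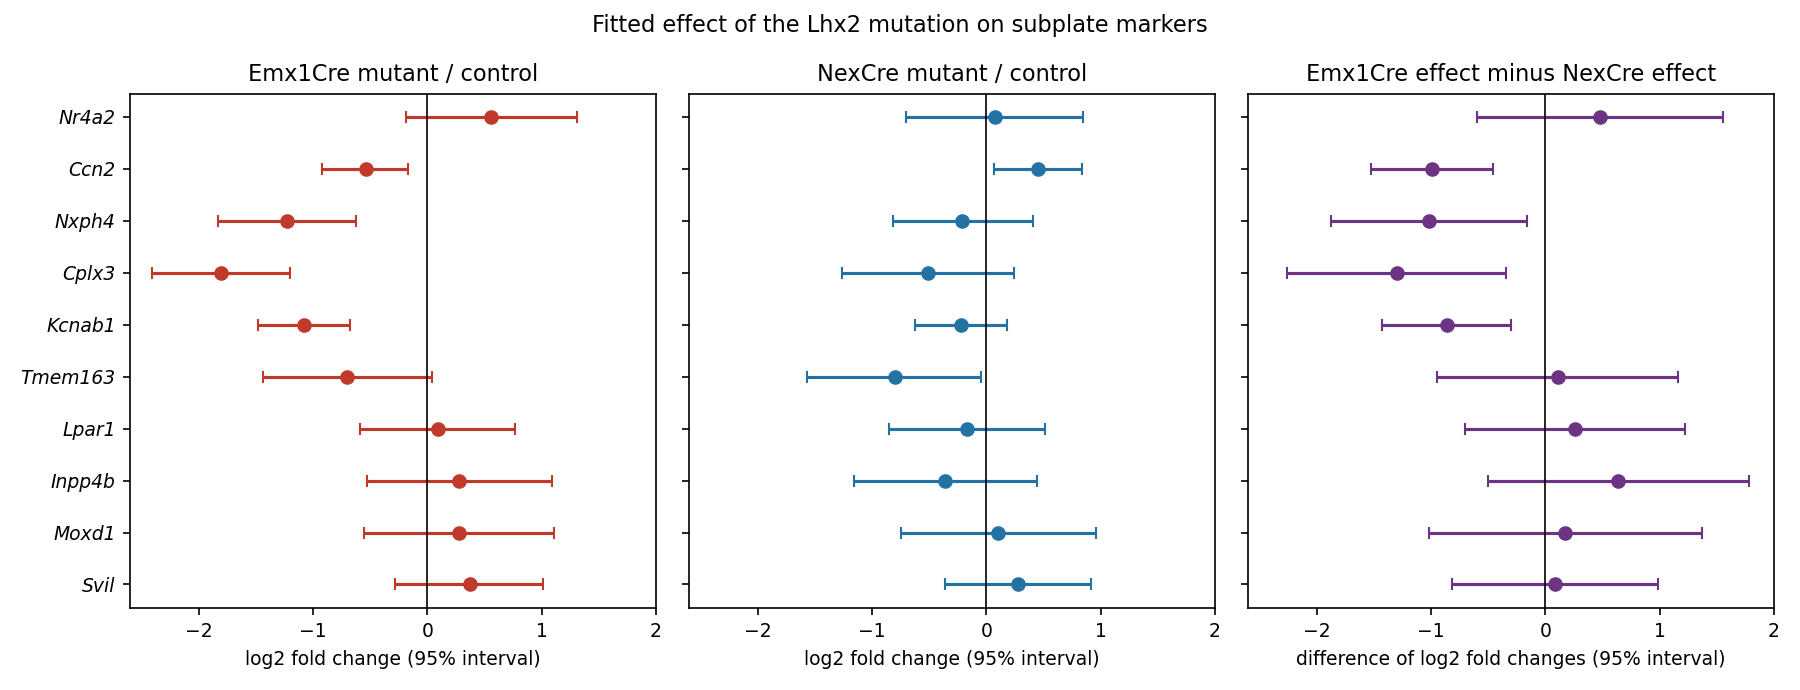
Log2 fold change of mutants over controls for each subplate marker in the Emx1Cre line (left) and the NexCre line (middle), and the difference of these effects (right), each with its 95% interval. The Emx1Cre values run from -1.81 (Cplx3) to 0.56 (Nr4a2), and the NexCre values from -0.80 (Tmem163) to 0.45 (Ccn2).

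Nr4a2, chosen here after its values were seen, made up a larger share of the markers' reads in the Emx1Cre mutants than in their controls. Summed over the 10 members, expression was 299.5 and 298 CPM in Emx1Cre mutants, against 367 and 407 CPM in Emx1Cre controls. Nr4a2 made up 48.8% and 46.0% of that sum in the mutants, against 25.6% and 24.1% in the controls. Without Nr4a2 the sum was 153 and 161 CPM in mutants, against 273 and 309 CPM in controls. The 10 members of the NexCre line summed to 91.3 and 97.2 CPM in mutants, against 107 and 93.4 CPM in controls, and these groups overlapped.

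Per kilobase of merged exons, the order of the members also differed between the groups. In Emx1Cre mutants Nr4a2 came first at 34.9 CPM per kb, followed by Nxph4 at 15.3, Ccn2 at 14.4 and Cplx3 at 5.51 CPM per kb. In Emx1Cre controls Nxph4 came first at 35.8 CPM per kb, followed by Nr4a2 at 23.6, Ccn2 at 21.03 and Cplx3 at 19.3 CPM per kb. Several of these neighbours were not told apart, since their ranges over the 2 pools overlapped. In Emx1Cre mutants the range of Nxph4 (11.6 to 18.98 CPM per kb) held that of Ccn2 (14.2 to 14.6). In Emx1Cre controls Ccn2 (18.7 to 23.4 CPM per kb) overlapped both Nr4a2 (23.1 to 24.2) and Cplx3 (17.4 to 21.2). Inpp4b was last in both Emx1Cre groups, at 0.292 CPM per kb in mutants and 0.241 CPM per kb in controls. In the NexCre line Nxph4 came first, at 5.05 CPM per kb in mutants and 5.84 CPM per kb in controls, and Cplx3 last, at 0.28 CPM per kb in mutants and 0.394 CPM per kb in controls. The first place of Nxph4 in NexCre controls (5.04 to 6.63 CPM per kb) overlapped the range of Nr4a2 there (1.90 to 5.29).

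The difference of the effects, Emx1Cre minus NexCre, tests whether the log2 fold change of a marker differed between the 2 lines. It uses the same libraries as the line comparisons. None of the 10 members was called by edgeR or by DESeq2, against 0.00438% and 0.526% of all genes. At an unadjusted p under 0.05 it was negative for 4 members, where 2.06% of all genes were. These were Ccn2 (-0.99 ± 0.24, edgeR adjusted p = 0.584), Kcnab1 (-0.86 ± 0.25, adjusted p = 0.648), Cplx3 (-1.30 ± 0.43, adjusted p = 0.742) and Nxph4 (-1.02 ± 0.39, adjusted p = 0.829). Ccn2 came closest to the threshold, with an adjusted p of 0.053 by DESeq2. For Nr4a2 the difference was 0.48 ± 0.48, with a 95% interval from -0.60 to 1.56. The lines started from unlike levels. Ccn2 averaged 8.48 CPM in NexCre controls, against 60.2 CPM in Emx1Cre controls, and Cplx3 1.16 against 57.0 CPM. Kcnab1 averaged 19.04 against 58.6 CPM, and Nxph4 9.78 against 59.9 CPM. A differing log2 fold change therefore need not mean a differing response, and the part of the starting level was not tested.

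The controls of the 2 lines differed from each other, and the NexCre controls held less of 6 of the subplate markers. This comparison of NexCre controls with Emx1Cre controls was added after the levels were seen, and it shares its libraries with the comparisons above. By edgeR 6 members were lower in NexCre controls, against 19.3% of all tested genes, and 2 were higher, against 26.6%. Cplx3 averaged 1.16 CPM in NexCre controls, against 57.0 CPM in Emx1Cre controls, a log2 fold change of -5.60 ± 0.33 (edgeR adjusted p = 3.93e-06). The other 5 lower members were Ccn2 (-2.83 ± 0.18), Nr4a2 (-2.71 ± 0.36), Nxph4 (-2.62 ± 0.29), Kcnab1 (-1.62 ± 0.18) and Tmem163 (-1.61 ± 0.34). Inpp4b (1.40 ± 0.37) and Lpar1 (0.98 ± 0.31) were higher. Both of those calls were lost without Emx1Cre control 2 or without NexCre control 1, where Lpar1 had adjusted p-values of 0.145 and 0.260 and Inpp4b of 0.0699 and 0.108 by edgeR. The median over the members was -1.62, whereas that over all genes was 0.17. Over all genes 45.8% were called in either direction, and the line cannot be told apart from anything else that differed between the 2 tables.

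**Figure D3:**
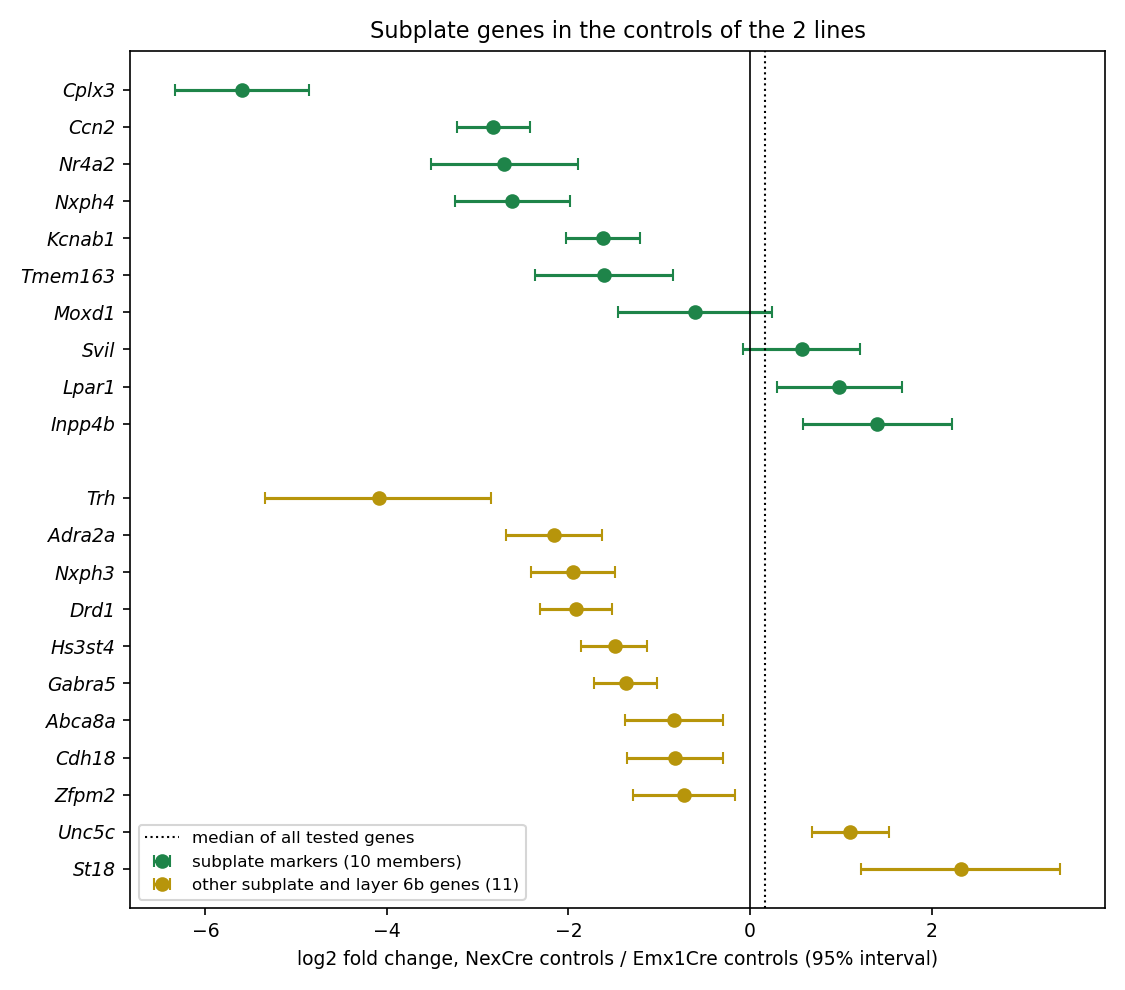
Log2 fold change of NexCre controls over Emx1Cre controls, with 95% intervals, for the 10 subplate markers (green) and 11 further subplate and layer 6b genes (gold). The dotted line is the median of all tested genes, at 0.17. Cplx3 at -5.60 and Trh at -4.09 lie farthest left, and Inpp4b, Lpar1, Svil, Unc5c and St18 lie to the right of 0.

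Levels in the NexCre mutants were low as well. Their 10 members summed to 91.3 and 97.2 CPM, where the Emx1Cre mutants had 299.5 and 298 CPM. The tissue label is the same for both lines, and Cplx3 was present at 0.679 to 1.42 CPM in the 4 NexCre libraries. Cplx3 rested there on 28 to 57 reads a library, whereas Ccn2, Nr4a2, Nxph4 and Kcnab1 each had at least 248 reads in every library.

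A second list of 11 subplate and layer 6b genes was followed beside the members: Hs3st4, Adra2a, Gabra5, Drd1, Nxph3, Zfpm2, Abca8a, Cdh18, Trh, Unc5c and St18. By edgeR 0 of the 11 were called in either line. In Emx1Cre mutants 1 was higher at an unadjusted p under 0.05, against 4.52% of all genes, and the median log2 fold change was 0.027. That gene was Gabra5, a subunit of GABA-A receptors, with 136 and 123 CPM in Emx1Cre mutants, against 92.1 and 111 CPM in controls (0.35 ± 0.15, edgeR adjusted p = 0.645). At that level NexCre mutants had 2 higher and 1 lower, against 1.69% and 2.27% of all genes. Zfpm2, a zinc finger cofactor of GATA proteins, had 53.9 and 42.8 CPM in NexCre mutants, against 31.9 and 26.2 CPM in controls (0.74 ± 0.25, edgeR adjusted p = 1.0). Abca8a, a lipid transporter, gave 0.56 ± 0.24 (edgeR adjusted p = 1.0), and Unc5c, a receptor for netrin, gave -0.53 ± 0.19 (edgeR adjusted p = 1.0). Over all 11 the log2 fold changes in the Emx1Cre line ran from -0.39 (Cdh18) to 0.56 (St18), with 6 above 0 and 5 below. Between the controls, 9 of the 11 were called lower in the NexCre line, against 19.3% of all genes, and 2 were called higher, against 26.6%, with a median of -1.37.

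Of 43 relatives and binding partners of the members, 40 could be tested and 0 were called by edgeR in either line. Cplx4 and Moxd2 had 0 reads in every library, and Ccn5 did not pass the filter. Before adjustment, at p under 0.05, Emx1Cre mutants had 5 of them higher and 3 lower, against 4.52% and 3.07% of all genes, and NexCre mutants had 1 higher, against 1.69%. Nr4a3, the nuclear receptor closest in kind to Nr4a2, had 45.3 and 24.0 CPM in Emx1Cre mutants, against 72.7 and 75.3 CPM in controls. Its log2 fold change was -1.09 ± 0.29 (edgeR adjusted p = 0.278), and DESeq2 called it lower (adjusted p = 0.0123). The sign was opposite to that of Nr4a2, at 0.56, while Nr4a1 gave 0.03 ± 0.35. Cplx1, a complexin found across many synapses, had 158 and 169 CPM in Emx1Cre mutants, against 195 and 236 CPM in controls (-0.40 ± 0.15, edgeR adjusted p = 0.576). Cplx2, a further complexin, gave -0.24 ± 0.21. Nrxn3, one of the neurexins, was called higher in Emx1Cre mutants by DESeq2 (adjusted p = 0.0333), with 70.0 and 76.9 CPM, against 43.4 and 49.99 CPM in controls (0.65 ± 0.15, edgeR adjusted p = 0.203).

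The other partners at that level followed no one direction. Ccn3, a matricellular relative of Ccn2, had 100.3 and 97.4 CPM in Emx1Cre mutants, against 66.1 and 62.2 CPM in controls (0.62 ± 0.27, edgeR adjusted p = 0.633). Kcnab3, a further potassium channel beta subunit, gave -0.70 ± 0.30 (edgeR adjusted p = 0.637). Slc30a10, a manganese exporter of the zinc transporter family, gave 0.70 ± 0.20 (edgeR adjusted p = 0.344), and Myh9, a non-muscle myosin heavy chain, gave 0.51 ± 0.14 (edgeR adjusted p = 0.322). Rxrg, a retinoid X receptor, gave 2.30 ± 0.96 (edgeR adjusted p = 0.623), and its groups overlapped, since Emx1Cre mutant 2 had 74.9 CPM and the other 3 Emx1Cre libraries 5.84 to 11.6 CPM. Lpar6, a further lysophosphatidic acid receptor, had 2.24 and 2.93 CPM in NexCre mutants, against 1.46 and 0.774 CPM in NexCre controls (1.21 ± 0.53, edgeR adjusted p = 1.0).

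Markers of other cell types also differed in the Emx1Cre line. Over all tested genes edgeR called 0.0789% there, and at an unadjusted p under 0.05 4.52% were higher and 3.07% lower. DESeq2 called 175 of 20833 genes higher and 125 lower. Of 10 astrocyte markers 1 was called higher by edgeR and 8 by DESeq2, and 8 were higher at an unadjusted p under 0.05. Their sum was 4880 and 4148 CPM in Emx1Cre mutants, against 2200 and 2011 CPM in controls. Of 11 upper layer markers, Lhx2 among them, 3 were called lower by edgeR and 6 by DESeq2, and 9 were lower at that level. Their sums were 1241 and 1064 CPM in mutants, against 1771 and 2477 CPM in controls. Of 9 meningeal and fibroblast markers 0 were called by edgeR, 4 were called higher by DESeq2 and 8 were higher at that level. Their sums were 235 and 400 CPM in mutants, against 192 and 195 CPM in controls. Pdgfra, also an oligodendrocyte lineage marker, made up most of these sums, at 190 and 232 CPM in mutants, against 171 and 177 CPM in controls. The other genes of the list were highest in Emx1Cre mutant 2, such as Col1a1 at 10.5 and 40.7 CPM in mutants, against 1.81 and 4.24 CPM in controls. Of 10 interneuron markers 0 were called and 6 were higher, with sums of 541 and 908 CPM in mutants, against 432 and 549 CPM in controls. Of 7 thalamic markers 1 was called higher by edgeR, and the lists that follow had no edgeR call. At the unadjusted level 4 of 9 endothelial and pericyte, 2 of 6 hippocampal, 2 of 9 striatal and 1 of 7 microglial markers were higher. Lower at that level were 2 of 5 intermediate progenitor and 1 of 7 Cajal-Retzius markers. Each of these lists had reads for all its genes in every group. Their part in the values of the subplate markers was not tested.

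Markers of the deep layers, which adjoin the subplate, and of the claustrum gave no edgeR call in the Emx1Cre line. DESeq2 called 0 deep layer markers and 1 claustrum marker there. Of 11 deep layer markers 0 were called and 2 were lower at an unadjusted p under 0.05 in Emx1Cre mutants, with a median of -0.088. Of 6 claustrum and endopiriform markers 0 were called and 1 was higher, with sums of 1179 and 1188 CPM in Emx1Cre mutants, against 965 and 1326 CPM in controls. Gng2 made up most of these sums. Log2 fold changes were above 0 for 5 of the 6 and below 0 for 1. The largest was that of Oprk1, at 2.24, with 11.8 and 12.2 CPM in Emx1Cre mutants, against 2.82 and 2.22 CPM in controls. The part of claustral tissue in the Nr4a2 value was not tested. Of 10 oligodendrocyte lineage markers 0 were called and 0 were past that level, with sums of 903 and 1071 CPM in mutants, against 854 and 824 CPM in controls. The 6 choroid plexus markers summed to 2083 and 22.9 CPM in NexCre mutants, against 384 and 5.92 CPM in NexCre controls. Ccn2 was at 11.9 and 11.3 CPM in those mutants, and the part of choroid plexus RNA in its value was not tested.

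The cell type lists also differed between the controls. Of the 10 oligodendrocyte lineage markers 9 were called lower in NexCre controls and 1 was called higher, Mog at 1.82. The 10 summed to 348 and 360 CPM in NexCre controls, against 854 and 824 CPM in Emx1Cre controls. Of the upper layer markers 9 of 11 were higher, summing to 3897 and 4730 CPM in NexCre controls, against 1771 and 2477 CPM in Emx1Cre controls. Of 5 markers of intermediate progenitors, the dividing neuron precursors of the subventricular zone, 4 were higher, summing to 185 and 183 CPM in NexCre controls, against 33.9 and 19.6 CPM in Emx1Cre controls. Of 11 deep layer markers 6 were called lower in NexCre controls and 1 higher, and of 6 claustrum and endopiriform markers 3 lower and 1 higher. Of 8 radial glia markers 6 were called higher. Over all tested genes 19.3% were called lower and 26.6% higher. The part of these lists in the lower subplate markers was not tested.

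**Figure D4:**
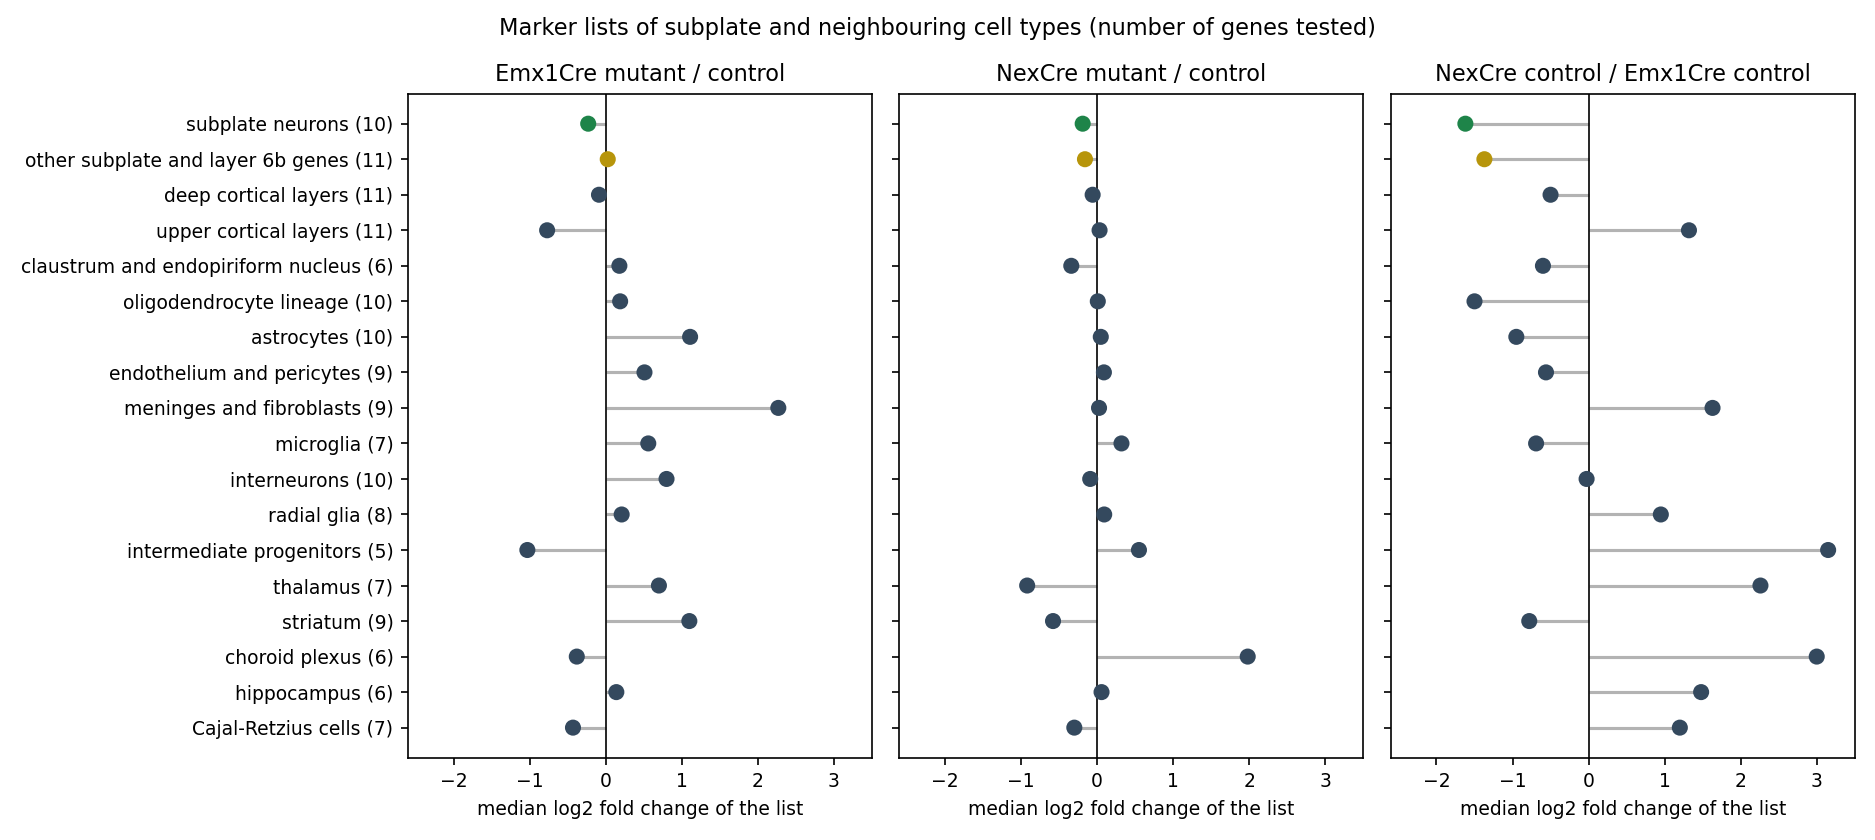
Median log2 fold change of each marker list in Emx1Cre mutants over controls, NexCre mutants over controls and NexCre controls over Emx1Cre controls, with the number of genes tested in brackets. The subplate markers (green) lie at -0.23, -0.19 and -1.62, and the further subplate and layer 6b genes (gold) at 0.027, -0.16 and -1.37.

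The genes with the pattern most like that of Cplx3, by Pearson's r of log2(CPM + 0.5) with each line centred on its own mean, were Dtx4 (r = 0.991), Cdk19 (r = 0.991), Pgrmc2 (r = 0.990), Kctd20 (r = 0.989) and Ppp1cc (r = 0.983). For Nr4a2 they were Htra3 (r = 0.950), Gm3468 (r = 0.937), Zfp839 (r = 0.934), Glb1l (r = 0.930) and Kcnj8 (r = 0.925). The 8 libraries form 4 groups, so each r describes 8 points that share a line, a genotype and a depth, picked as the highest of 12087 genes.

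Some members share sequence with a neighbouring gene, and whether counting used strand is not stated in the labels or files. The antisense transcript Gm15270 overlaps 665 exonic bases of Ccn2 and had 0 to 13 reads a library. A330015K06Rik overlaps 201 exonic bases of Kcnab1 on the opposite strand and had 2 to 71 reads. Tmem163 shares 152 exonic bases with Mgat5, which had 2854 to 5587 reads, so some reads of these genes cannot be assigned with certainty. Moxd1 and Ccn2 are neighbours on chromosome 10, with 293 kb between the end of Moxd1 and the start of Ccn2, and they gave values of 0.28 and -0.54 in the Emx1Cre line.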

How the data were processed

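RNA was measured in 8 libraries of paired 100 bp reads from subplate tissue of newborn mice. The authors deposited raw gene counts, 1 table for each line. HISAT2, SAMtools and DESeq2 were used with build mm10, per the submitters' processing notes. The counting program, annotation, strand setting and all versions were not given in the sources used here. Tables were joined by gene symbol, and 53675 genes (97.2%) matched GENCODE M21, whose merged exons gave the lengths. Symbols turned into date numbers by a spreadsheet (26 in the Emx1Cre table, 24 in the NexCre table, 0.239% to 0.269% of reads) were left out. No per-sample column was left unmapped.

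Genes were kept by filterByExpr (minimum count 10, minimum total 15) and scaled by TMM. The model was fitted in edgeR 4.0.16 (R 4.3.3; glmQLFit, two-sided glmQLFTest) with all 8 libraries in 1 fit and group as the only term, with 4 residual degrees of freedom and a biological coefficient of variation of 26.2%. P-values were adjusted by Benjamini-Hochberg over all 22820 genes. DESeq2 1.42.0 was the alternative test. Other alternatives were RLE and upper-quartile scaling, no filter, a stricter one (mean count 20 and 1 CPM in at least 2 libraries), each line alone, a replicate block, removal of 243 small RNA and histone genes, a pseudocount of 1 CPM in place of 0.5 CPM, and leaving out each library. The script was tested on simulated data. Precision per gene is given by standard errors and 95% intervals of the fit.

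Members and lists were chosen with earlier results of these data known. All members are named with every library, Lhx2, Emx1 and Neurod6 as checks of genotype, and of the other subplate genes and the relatives those at an unadjusted p under 0.05 in a line; genes like Cplx3 and Nr4a2 were the 5 with the highest r among those with a mean of 5 CPM or more. Cdh18, St18, Trh, Cplx2 and Nr4a1 were named, and the comparison of the 2 control groups added, after their values were seen.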

Additional observations from a re-analysis of the deposited data

Results flagged for a closer look

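Ccn2 took opposite directions in the 2 lines: the log2 fold change of mutants over controls was -0.54 in the Emx1Cre line and 0.45 in the NexCre line, a difference of -0.99 ± 0.24. Both Emx1Cre mutants were below both of their controls, and both NexCre mutants above both of theirs. The adjusted p over all genes was 0.584 by edgeR and 0.053 by DESeq2, so the difference failed the correction. Over the 15 alternatives with a value it ran from -1.15 to -0.82, with adjusted p-values from 0.053 to 1.0. Ccn2 averaged 8.48 CPM in NexCre controls, against 60.2 CPM in Emx1Cre controls, and the part of that starting level was not tested.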

How the results depend on the processing

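Counts of calls depended on the test and the filter more than the members' values did. In the Emx1Cre line edgeR called 18 genes, and 585 without the filter, 300 by DESeq2, 82 with the replicate block, 0 with the line fitted alone, and 0 to 28 with 1 library left out. Members called there were 0, and 3 without the filter, by DESeq2 and with the replicate block (Cplx3, Nxph4 and Kcnab1 each time), and 0 to 1 with 1 library left out. In the NexCre line 7 genes were called, and 251 without the filter, 79 by DESeq2, 17 with the line alone, 22 with the replicate block, and 1 to 43 with 1 library left out; members called were 0 under every alternative run. For the difference of effects 1 gene was called, and 408 without the filter, 99 by DESeq2, 5 with the replicate block, 0 without small RNA and histone genes, and 1 to 31 with 1 library left out; members called were 0 throughout. The members' median with 1 library left out ran from -0.35 (without Emx1Cre mutant 1) to -0.0015 (without Emx1Cre control 1) in the Emx1Cre line and from -0.21 to 0.041 (without NexCre control 1) in the NexCre line. The cause of these moves was not tested. Between the controls 6 to 8 members were called, where 45.8% of all tested genes were.

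The labels do not say that replicate numbers pair the samples. Same-numbered deviations from the group means correlated at 0.389 in the Emx1Cre line and 0.189 in the NexCre line over 15779 genes, with only 2 pairs a line, so the replicate block is given as an alternative.

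In the Emx1Cre line Cplx3, Kcnab1, Nxph4, Ccn2, Tmem163, Nr4a2 and Moxd1 kept their sign under all 16 alternatives, whereas Lpar1, Inpp4b and Svil changed sign when 1 Emx1Cre library was left out. In the NexCre line Nr4a2, Lpar1, Moxd1 and Inpp4b did so when 1 NexCre library was left out. With 2 pools a group, small changes of the low members cannot be resolved.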
